A study of Mus musculus with 12 samples.

Results

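The genes described here are 10 genes of the cyclic AMP (cAMP) pathway that holds mouse oocytes in prophase of the first meiotic division. They were chosen by name, as the rows of the deposited expression table for 2 receptors (Gpr3 and Gpr12), the stimulatory G protein alpha subunit (Gnas), 2 adenylyl cyclases (Adcy3 and Adcy9), 1 phosphodiesterase (Pde3a) and 4 subunits of protein kinase A (PKA: Prkaca, Prkacb, Prkar1a and Prkar2a). The table lists 23230 genes. All 10 genes were listed in it, and 8 of them reached 1 FPKM (fragments normalised to transcript length and to mapped reads) in at least 1 library and were tested among 11502 such genes. Gpr12 and Adcy3 stayed at or below 0.520 FPKM in every library, and their values are given without a test.

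RNA of oocytes from WT and from Zar1/2-null females, on a mixed C57BL6 and ICR background, was sequenced at 3 stages. Each of the 6 groups has 2 libraries, made from 10 pooled oocytes each. The null mice carry CRISPR-made disruptions of both Zar1 and Zar2 (listed as Zar1l), in all cells. The growing oocytes came from females labelled as 13.5 days old, while the methods give 12 days. Fully grown oocytes, which still have their germinal vesicle (GV), were collected 44 h after PMSG from females labelled as 21 days old, and ovulated oocytes, labelled MII, 16 h after hCG. The name MII gives the time of collection, and the study describes ovulated null oocytes as halted within the first meiotic division. In every comparison of MII groups, genotype and the meiotic stage reached therefore cannot be told apart. Hormone priming and ovulation likewise go with the stages and cannot be told apart from them. Each library pools 10 oocytes, so a lower level in every oocyte and a loss in some of the oocytes cannot be told apart. Separate females for the 2 libraries of a group are not named in the labels. The p-values measure only the spread between libraries of the same group, pooled over the 6 groups.

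In an arrested oocyte, the constitutively active receptors GPR3 and GPR12 activate Gαs (the product of Gnas), which stimulates adenylyl cyclase to make cAMP. cAMP binds the regulatory subunits of PKA and frees the catalytic subunits, which keep the maturation kinase CDK1 inactive through WEE2 and CDC25B. The phosphodiesterase PDE3A degrades cAMP in the oocyte. Cyclic GMP from the surrounding granulosa cells enters through gap junctions and inhibits PDE3A, and the surge of luteinizing hormone ends that inhibition, so that cAMP falls and meiosis resumes.

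The deposited values had been multiplied by a factor from the ERCC spike-in, a set of synthetic RNAs added to each lysate. They follow the amount of sequenced RNA relative to the spike-in only among libraries scaled to the same reference. The study took WT growing oocytes as that reference. Both WT growing libraries had a factor of 1, though the study lists unequal spike-in shares for them. These 2 libraries were thus not put on a common spike-in scale. To which of the 2 each other library was scaled is not stated. The study reports that poly(A) tails of selected mRNAs failed to lengthen in maturing null oocytes. The part of tail length in the values here was not tested. The recovered factors were 1 in the WT growing libraries, 0.779 to 0.862 in the Zar1/2-null growing, 0.697 to 0.836 in the WT GV, 0.533 to 0.583 in the null GV, 0.225 to 0.228 in the WT MII and 0.252 to 0.283 in the null MII libraries. On the deposited scale most genes were lower at later stages. The median difference of all genes tested from GV to MII was -1.28 in WT and -0.72 in null oocytes on the log2(FPKM + 1) scale. Without the factor these 2 medians were -0.43 and -0.28. With the factor divided out, the ratio of low values to those of the first WT growing library had a peak in each other library. The peak held 17.2% to 22.0% of the low genes. Taken as the relative worth of 1 read, it gave the other libraries a depth of 0.914 to 1.24 times that of the first. Zar1l was lower in null than in WT oocytes at every stage, with 642 ± 3.21 and 15.3 ± 3.04 FPKM in growing oocytes (SD, n = 2 each). Zar1 was lower in null growing and GV oocytes (adjusted p = 0.0321 and 0.000371 by limma with Benjamini-Hochberg adjustment), and higher in null than in WT MII oocytes, with 192 ± 2.80 and 78.0 ± 7.97 FPKM. The 11 oocyte markers examined, among them Gdf9 and Zp3, were above 1 FPKM in every library, from 4.54 FPKM upwards. Their summed level was 1293 and 1366 FPKM in the WT MII libraries and 5126 and 4469 FPKM in the null MII libraries. Of 15 granulosa and cumulus markers, Amh, Foxl2, Inhba, Npr2, Has2, Ptgs2, Tnfaip6, Cyp11a1 and Lhcgr never reached 1 FPKM, and the summed level was 14.4 to 35.0 FPKM in growing, 15.0 to 20.4 FPKM in GV and 5.21 to 8.59 FPKM in MII libraries. Cyp19a1 (2.53 to 19.0 FPKM) and Nr5a2 (0.925 to 11.5 FPKM) were the highest of the 15, and Inha, Kitl, Gja1 and Fshr reached 3.11, 2.58, 2.45 and 1.24 FPKM. The summed level of 6 immune markers was 3.08 and 3.07 FPKM in the null growing and 0.524 to 2.71 FPKM in the other libraries. Of these, only Cd68 reached 1 FPKM in any library. Of 5 epithelial markers, Krt8 reached 88.0 FPKM and Cdh1 had 13.7 to 29.4 FPKM, while Krt18, Epcam and Ovgp1 never reached 1 FPKM. Their summed level was 91.3 and 108 FPKM in the null growing and 14.6 to 33.8 FPKM in the other libraries.

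The ends of the members' transcripts are shown because the fate of stored maternal mRNAs is set through their 3′ UTRs, which carry the poly(A) signal and, in mRNAs whose tails are extended at maturation, a cytoplasmic polyadenylation element (CPE). In an annotation of the mm9 build (GENCODE vM1), the coding transcript that ends farthest 3′ was taken for each gene, and its last 150 bases were searched on the sense strand. The letters AATAAA or ATTAAA were found for 7 of the 10 members, and in 82.7% of the 9629 tested genes with a 3′ UTR of that length. The CPE letters TTTTAT or TTTTAAT were found for Gpr12, Adcy3 and Prkacb, 3 of 10 members, and in 26.2% of those genes. A CPE match can overlap a poly(A) signal, as it does for Adcy3. Gpr3, Gnas and Prkar1a are printed with the last poly(A) signal in capitals, and the 3 members with a CPE match with the last such match in capitals, each in a window of 30 bases.
Gpr3 (chr4:132765263-132765292, minus strand): ccaaccctactcAATAAAaaaaaaatggtt
Gnas (chr2:174172216-174172245, plus strand): aaaatcaataaaaATTAAAaatgagcaaaa
Prkar1a (chr11:109530929-109530958, plus strand): ggtaggtcacagAATAAAaaagatgaaata
Gpr12 (chr5:147393781-147393810, minus strand): attttatttatTTTTAATatattctgagag
Adcy3 (chr12:4213487-4213516, plus strand): agaacaggactgTTTTATtaaaagctttac
Prkacb (chr3:146392568-146392597, minus strand): gaaaatgtgttTTTTAATtcatcaataacc
A match describes these letters only. No match to either motif lay in the last 150 bases of Adcy9, Pde3a and Prkar2a, and Prkaca had 2 poly(A) signals and no CPE match there. Gnas is a locus of several promoters whose transcripts share their last exons, and its value covers them together. An annotated coding model on the opposite strand (AF085738) holds 32.3% of the 50-base stretches of the Gnas transcript, and Cenpo, on the opposite strand, holds 24.3% of those of Adcy3. Since strand was not stated for the assignment of reads, the values of Gnas and Adcy3 may include reads of their antisense partners. The other 8 members shared no 50-base stretch with a coding transcript of another gene.

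Over all 12 libraries the levels of the members ranged from 0.0133 FPKM (Adcy3) to 144 FPKM (Gnas), on a scale that is per length of transcript. In WT growing oocytes Gnas was highest, with 95.6 ± 8.81 FPKM (SD, n = 2), followed by Prkar1a with 38.4 ± 3.44 FPKM, Gpr3 with 22.7 ± 4.40 FPKM and Pde3a with 11.7 ± 0.846 FPKM. Prkar2a had 8.74 ± 1.21 FPKM, Prkaca 5.13 ± 0.624 FPKM, Prkacb 2.91 ± 0.111 FPKM and Adcy9 1.16 ± 0.395 FPKM. Gpr12 with 0.256 ± 0.00640 FPKM and Adcy3 with 0.187 ± 0.0388 FPKM were lowest. Each of these levels was separated from its neighbour in the order by libraries that did not overlap. Where values are whole steps of 1 read, the reads behind them can be counted: every member except Gnas fell on such steps within 0.02 steps in all 12 libraries. The fewest reads in a library were 477 for Prkar1a, 286 for Prkar2a, 247 for Pde3a, 237 for Gpr3, 105 for Prkaca, 65 for Prkacb and 42 for Adcy9, which gives a counting error of 4.58% for Prkar1a and 15.4% for Adcy9 at the lowest library. Gpr12 rested on 2 to 23 reads and Adcy3 on 2 to 16 reads, with a counting error of 70.7% at 2 reads. These errors cover counting only.

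**Figure D1:**
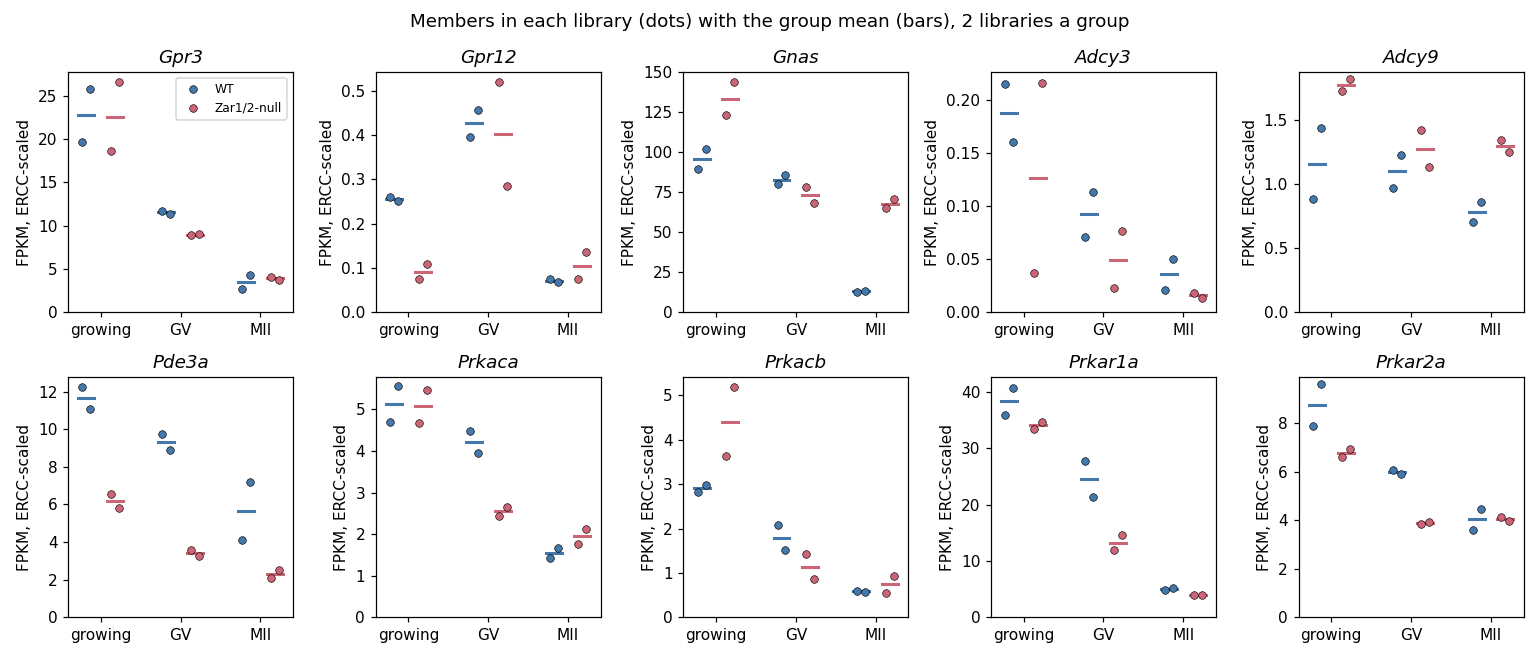
ERCC-scaled FPKM (y axis, linear, from 0) of the 10 members in growing, GV and MII oocytes; dots are the 2 libraries of a group and bars the group mean. In MII oocytes the WT libraries of Gnas had 12.9 and 13.0 FPKM and the Zar1/2-null libraries 64.8 and 71.0 FPKM, and Pde3a was lower in each null library than in either WT library of the same stage.

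Gpr3, whose product is the receptor that keeps cAMP high in mouse oocytes, did not differ detectably between genotypes at any stage. It had 19.6 and 25.8 FPKM in WT growing, 18.6 and 26.6 in null growing, 11.7 and 11.4 in WT GV, 8.89 and 9.02 in null GV, 2.68 and 4.30 in WT MII, and 4.03 and 3.76 FPKM in null MII oocytes. The libraries of the genotypes overlapped in growing and MII oocytes, and both null GV libraries lay below both WT GV libraries. The log2 differences between null and WT oocytes were -0.02 in growing (95% interval -0.48 to 0.45), -0.33 in GV (-0.80 to 0.13) and 0.15 in MII oocytes (-0.31 to 0.61). These intervals do not exclude differences of up to 0.80 on the log2 scale.

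Gpr12, a receptor of the same family, was at the limit of detection. It had 0.260 and 0.251 FPKM in WT growing, 0.0739 and 0.109 in null growing, 0.395 and 0.457 in WT GV, 0.520 and 0.284 in null GV, 0.0747 and 0.0676 in WT MII, and 0.0744 and 0.135 FPKM in null MII oocytes. In growing oocytes these values stand for 6 and 7 reads in WT and 2 and 4 reads in null libraries, so that a difference was not detectable at this depth. In each library Gpr12 was a small part of the Gpr3 level, with ratios from 0.00397 to 0.0585. The highest ratio of each genotype was that of a GV library.

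Gnas was the member with the largest genotype difference. It had 89.3 and 102 FPKM in WT growing, 123 and 144 in null growing, 79.8 and 85.5 in WT GV, 78.4 and 68.2 in null GV, 12.9 and 13.0 in WT MII, and 64.8 and 71.0 FPKM in null MII oocytes. In WT oocytes the level was thus lower in MII than in both earlier stages, while the null MII libraries overlapped with the null GV libraries. In MII oocytes the null mean was 5.24-fold that of WT, with a log2 difference of 2.30 (SE 0.15, adjusted p = 3.66e-07 by limma with Benjamini-Hochberg adjustment). The difference was called in all 9 alternative fits, with values from 2.01 to 2.38. In growing oocytes both null libraries were above both WT libraries, 1.40-fold by the means (log2 difference 0.48, SE 0.15, limma adjusted p = 0.0288). In GV oocytes the null mean was 0.886 of the WT mean, and this log2 difference of -0.17 did not pass the test (95% interval -0.50 to 0.15). The part of AF085738, the coding model on the other strand, in the Gnas values was not tested.

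The adenylyl cyclases among the members were low. Adcy3 had 0.215 and 0.160 FPKM in WT growing, 0.0366 and 0.216 in null growing, 0.0711 and 0.113 in WT GV, 0.0224 and 0.0767 in null GV, 0.0211 and 0.0502 in WT MII, and 0.0184 and 0.0133 FPKM in null MII oocytes. Its null growing libraries held 2 and 16 reads, which spanned the WT libraries. Cenpo, the overlapping gene on the other strand, had 52.1 and 55.5 FPKM in the WT growing and 4.27 and 4.49 FPKM in the WT MII libraries, and its part in the Adcy3 values was not tested.

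Adcy9 had 0.879 and 1.44 FPKM in WT growing, 1.73 and 1.82 in null growing, 0.971 and 1.23 in WT GV, 1.42 and 1.13 in null GV, 0.700 and 0.860 in WT MII, and 1.35 and 1.25 FPKM in null MII oocytes. The null libraries were above the WT libraries in growing and MII oocytes and overlapped with them at the GV stage. None of the 3 differences passed the test, with log2 differences of 0.37 in growing (95% interval 0.05 to 0.70), 0.12 in GV (-0.21 to 0.44) and 0.37 in MII oocytes (0.04 to 0.69). Adcy9 exceeded Adcy3 in every library, by 4.09 to 93.5 times.

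Pde3a (chromosome 6 of mm9, 141197790 to 141447872), which encodes the phosphodiesterase that degrades cAMP in the oocyte, was lower in null oocytes at all 3 stages. It had 12.3 and 11.1 FPKM in WT growing, 6.53 and 5.83 in null growing, 9.75 and 8.87 in WT GV, 3.59 and 3.27 in null GV, 4.14 and 7.21 in WT MII, and 2.105 and 2.52 FPKM in null MII oocytes. At no stage did the null and WT libraries overlap. The WT mean was 1.89-fold the null mean in growing oocytes (log2 difference -0.82, SE 0.20, adjusted p = 0.00801 by limma with Benjamini-Hochberg adjustment). It was 2.71-fold the null mean in GV oocytes (log2 difference -1.22, SE 0.20, limma adjusted p = 0.000718) and 2.45-fold in MII oocytes (log2 difference -0.97, SE 0.20, limma adjusted p = 0.0026). The ratio of Adcy3 to Pde3a, between the cyclase and the phosphodiesterase, was 0.0371 or less in every library, and the low Adcy3 counts leave it without a clear difference between genotypes.

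The catalytic subunits of PKA were lower at the GV stage in null oocytes in the case of Prkaca, which encodes the alpha subunit (chromosome 8, 86496877 to 86520344). It had 4.69 and 5.57 FPKM in WT growing, 4.68 and 5.47 in null growing, 4.48 and 3.95 in WT GV, 2.44 and 2.66 in null GV, 1.43 and 1.68 in WT MII, and 1.77 and 2.13 FPKM in null MII oocytes. Growing libraries of the genotypes overlapped, both null GV libraries were below both WT GV libraries, and both null MII libraries were above both WT MII libraries. The log2 difference was -0.01 in growing (95% interval -0.32 to 0.30), -0.55 in GV (SE 0.14, adjusted p = 0.00929 by limma with Benjamini-Hochberg adjustment) and 0.21 in MII oocytes (-0.10 to 0.52).

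Prkacb, which encodes the beta catalytic subunit, had 2.83 and 2.99 FPKM in WT growing, 3.62 and 5.18 in null growing, 2.09 and 1.51 in WT GV, 1.42 and 0.862 in null GV, 0.598 and 0.577 in WT MII, and 0.554 and 0.932 FPKM in null MII oocytes. Null libraries were above WT libraries in growing oocytes, below them at the GV stage, and overlapped with them in MII oocytes. None of these differences passed the test: the log2 differences were 0.45 (95% interval 0.04 to 0.86), -0.39 (-0.80 to 0.02) and 0.13 (-0.28 to 0.54). The ratio of Prkacb to Prkaca was 0.604 and 0.536 in WT growing and 0.775 and 0.946 in null growing libraries, and overlapped between genotypes at the later stages.

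Prkar1a encodes a type I regulatory subunit and was the highest of the 4 PKA members in growing, GV and WT MII oocytes, though not in null MII oocytes. It had 35.9 and 40.8 FPKM in WT growing, 33.5 and 34.7 in null growing, 27.7 and 21.3 in WT GV, 12.01 and 14.5 in null GV, 4.83 and 5.23 in WT MII, and 3.89 and 3.92 FPKM in null MII oocytes. The null libraries were the lower ones at each stage, and only the GV difference was called, with a WT mean 1.85-fold the null mean (log2 difference -0.83, SE 0.16, adjusted p = 0.0019 by limma with Benjamini-Hochberg adjustment). The log2 difference was -0.16 in growing (95% interval -0.51 to 0.19) and -0.30 in MII oocytes (-0.65 to 0.05). Without ERCC scaling, the MII difference was -0.57 and passed the test (limma adjusted p = 0.00582).

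Prkar2a (chromosome 9, 108594474 to 108651843), which encodes a type II regulatory subunit, had 7.89 and 9.60 FPKM in WT growing, 6.60 and 6.95 in null growing, 6.05 and 5.89 in WT GV, 3.87 and 3.95 in null GV, 3.61 and 4.47 in WT MII, and 4.12 and 3.99 FPKM in null MII oocytes. Both null libraries were below both WT libraries in growing and GV oocytes, and inside the WT range in MII oocytes. The GV difference was called (log2 difference -0.51, SE 0.14, adjusted p = 0.0132 by limma with Benjamini-Hochberg adjustment). The differences in growing (-0.32, 95% interval -0.63 to -0.01) and MII oocytes (0.01, -0.30 to 0.31) were not.

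Ratios of genes within a library do not depend on its ERCC factor. The ratio of Prkar2a to Prkar1a was 0.220 and 0.235 in WT growing, 0.197 and 0.200 in null growing, 0.218 and 0.276 in WT GV, 0.322 and 0.272 in null GV, 0.748 and 0.855 in WT MII, and 1.06 and 1.02 in null MII libraries. Every MII library was thus above every GV and growing library, and the null MII libraries were above the WT MII libraries. The ratio of Prkar1a and Prkar2a together to Prkaca and Prkacb together was 5.83 and 5.89 in WT growing, 4.83 and 3.91 in null growing, 5.15 and 4.98 in WT GV, 4.12 and 5.24 in null GV, 4.17 and 4.31 in WT MII, and 3.45 and 2.58 in null MII libraries. This sum leaves out Prkar2b, which encodes another type II regulatory subunit and had 20.6 and 18.6 FPKM in WT growing, 7.25 and 6.71 in WT MII, and 5.73 and 6.68 FPKM in null MII libraries. With Prkar2b added, an alternative chosen after seeing the data, the ratio was 8.57 and 8.07 in WT growing, 6.08 and 4.53 in null growing, 7.27 and 7.10 in WT GV, 6.32 and 7.53 in null GV, 7.76 and 7.29 in WT MII, and 5.92 and 4.76 in null MII libraries. Under both sums the null libraries were below the WT libraries in growing and MII oocytes and spanned them at the GV stage. These ratios are descriptions without a test.

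**Figure D2:**
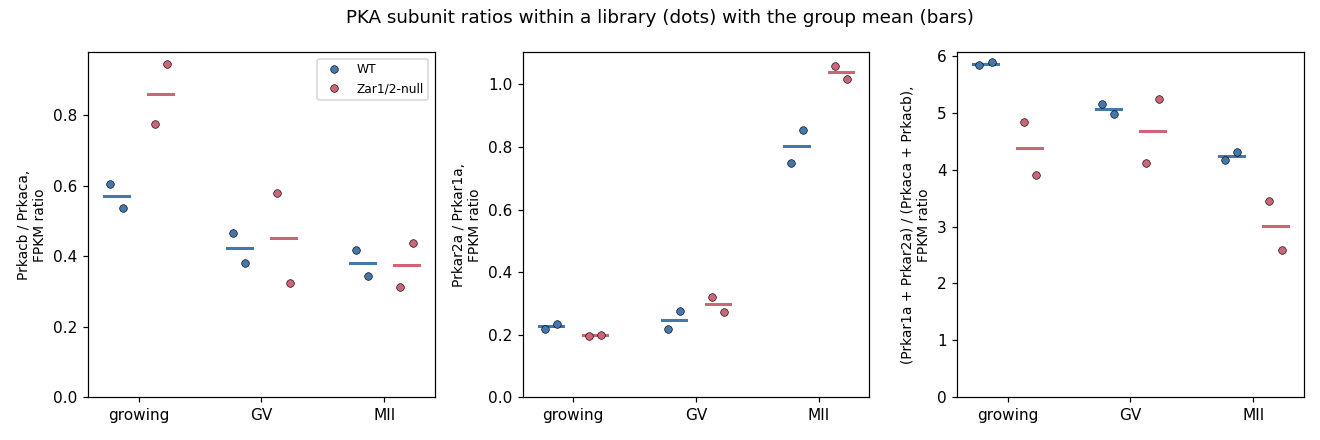
Ratio of FPKM values within a library (y axis, linear, from 0) for 3 pairs of PKA subunits or subunit sums, in growing, GV and MII oocytes; dots are libraries and bars group means. Prkar2a to Prkar1a lies between 0.748 and 1.06 in the MII libraries and at 0.322 or below in the others.

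How the loss of ZAR1 and ZAR2 changed the maternal transcriptome was asked at each stage. In growing oocytes, 1 of the 8 members tested was higher in null oocytes (Gnas) and 1 was lower (Pde3a), and 10.6% and 24.4% of all genes tested were higher and lower. The median log2 difference of the members was -0.01 and that of all genes -0.16. No member passed the study's rule of a 3-fold difference between group means set to at least 1 FPKM, which 4.52% of all genes passed in either direction. The Gnas call was lost on leaving out WT growing library 1 or 2 or null growing library 2, with adjusted p up to 0.187, and with the ERCC factor averaged over a group or the 4 growing libraries alone (limma adjusted p = 0.0540). The Pde3a call was lost with the ERCC factor divided out (log2 difference -0.57, limma adjusted p = 0.0881) and on leaving out WT growing library 1 or null growing library 2, with adjusted p up to 0.0621.

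In GV oocytes, 4 of 8 members were lower in null oocytes and none was higher, while 40.6% of all genes were lower and 2.83% higher. The members called were Pde3a, Prkaca, Prkar1a and Prkar2a, and the same 4 of 8 were those with an unadjusted p below 0.05. The median difference was -0.45 for the members and -0.38 for all genes, so that relative to the median of all genes Pde3a was at -0.84, Prkar1a at -0.46, Prkaca at -0.18 and Prkar2a at -0.13. No member passed the 3-fold rule, against 4.66% of all genes. Without ERCC scaling, 1 of the 4 calls was left, Pde3a (log2 difference -0.88, limma adjusted p = 0.0193), and 13.5% of all genes were lower and 7.19% higher. Prkar1a then had -0.41 (limma adjusted p = 0.0613), Prkaca -0.22 (adjusted p = 0.439) and Prkar2a -0.14 (adjusted p = 0.612). The calls of Prkaca and Prkar2a were also lost on leaving out WT GV library 1, with adjusted p of 0.0685 and 0.0653.

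In MII oocytes, 1 of 8 members was higher in null oocytes (Gnas) and 1 lower (Pde3a), against 21.5% and 10.3% of all genes. The median difference was 0.14 for the members and 0.06 for all genes. Gnas was the member past the 3-fold rule, which 7.49% of all genes passed towards higher levels in null oocytes. Both genes were called in each of the 9 alternative fits and on leaving out each of the 12 libraries, with the highest adjusted p at 0.0481 by limma, for Pde3a when the 4 MII libraries were fitted alone. On leaving out WT MII library 1, in which Pde3a had 4.14 FPKM against 7.21 FPKM in library 2, Pde3a also passed the 3-fold rule, with 3.11-fold, and without library 2 it was 1.79-fold (log2 difference -0.64, limma adjusted p = 0.0213). The summed level of oocyte markers, given above, was also higher in the null MII than in the WT MII libraries, and its part in the Gnas result was not tested.

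**Figure D3:**
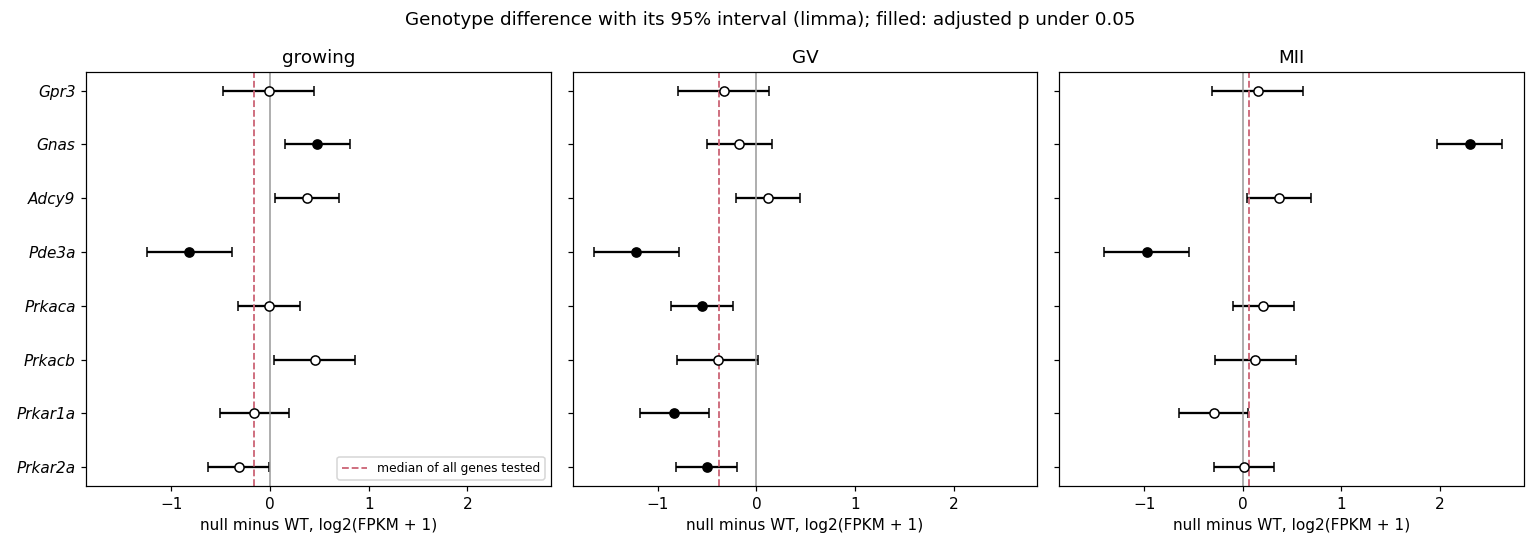
Difference between Zar1/2-null and WT oocytes on the log2(FPKM + 1) scale (x axis) for the 8 members tested, at each stage; dots are limma estimates, bars 95% intervals, filled dots have an adjusted p below 0.05 and the dashed line is the median of all 11502 genes tested. Pde3a is left of 0 at each stage, at -0.82, -1.22 and -0.97, and Gnas is at 2.30 in MII oocytes.

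Whether a genotype difference changed between stages was tested as an interaction. From GV to MII, the difference between null and WT oocytes rose for Gnas by 2.48 on the log2 scale (SE 0.21, adjusted p = 6.26e-06 by limma with Benjamini-Hochberg adjustment) and for Prkaca by 0.76 (SE 0.20, limma adjusted p = 0.0135). These were 2 of 8 members, and 33.9% of all genes had a called rise of this kind. The median interaction of all genes was 0.48, relative to which Gnas was at 2.00 and Prkaca at 0.28. Gnas stayed called in all 8 alternative fits, while Prkaca was not called with the ERCC factor divided out (0.30, limma adjusted p = 0.464), with median scaling (0.07, adjusted p = 0.845), or without WT GV library 1, WT MII library 1 or null MII library 2. From growing to GV, 0 of 8 members were called by limma, against 13.9% of all genes in either direction. At the looser threshold of an unadjusted p below 0.05, 4 members passed (Gnas, Prkaca, Prkacb and Prkar1a). The share of all genes at that threshold was not counted, so these 4 are not a result about the members.

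From growing to GV oocytes, 3 of 8 members fell in WT (Gpr3, Prkar1a and Prkar2a), against 28.7% of all genes, and 7 of 8 fell in null oocytes, against 55.9%. Adcy9 was the member that did not pass the test in null oocytes. In WT, Gpr3 fell by 0.91 on the log2 scale (SE 0.21, adjusted p = 0.0104 by limma with Benjamini-Hochberg adjustment), Prkar1a by 0.63 and Prkar2a by 0.48, where the median of all genes fell by 0.29. In null oocytes Prkacb fell by 1.33 (SE 0.19, limma adjusted p = 0.000159), Prkar1a by 1.30 and Gpr3 by 1.22, where the median of all genes fell by 0.50. Gnas, Prkaca, Pde3a and Prkar2a fell by 0.86, 0.77, 0.70 and 0.66 in null oocytes. Prkacb, with means of 4.40 and 1.14 FPKM in null growing and GV oocytes, was the 1 member past the 3-fold rule, which 7.21% of all genes passed towards lower levels in null and 0.774% in WT oocytes, where no member passed. Without ERCC scaling, 0 of 8 members were called in WT, where 3.66% of all genes rose and 3.23% fell. On this scale 3 of 8 members fell in null oocytes (Gpr3, Prkacb and Prkar1a), against 21.3% of all genes, while 14.3% rose. The WT calls of Gpr3, Prkar1a and Prkar2a were each lost without WT growing library 2 or WT GV library 2, and that of Prkar2a also without WT GV library 1, with limma adjusted p up to 0.0916, 0.114 and 0.176. The null call of Pde3a was lost without null growing library 1 (limma adjusted p = 0.0611).

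From GV to MII oocytes, a step that shares its GV libraries with the step before, 7 of 8 members fell in WT (all but Adcy9), against 93.4% of all genes, and 2 of 8 fell in null oocytes (Gpr3 and Prkar1a), against 68.7%. In WT, Gnas fell by 2.58 on the log2 scale (SE 0.15, adjusted p = 1.97e-08 by limma with Benjamini-Hochberg adjustment), Prkar1a by 2.07 and Gpr3 by 1.51, which was 1.30, 0.79 and 0.22 below the median of all genes. Prkaca, Prkacb, Pde3a and Prkar2a fell by 1.03, 0.81, 0.67 and 0.47, less than the median of all genes. The calls of Pde3a and Prkar2a were lost without WT MII library 1, with log2 differences of -0.33 and -0.35 (limma adjusted p = 0.0900 and 0.0645). In null oocytes Prkar1a fell by 1.53 (SE 0.16, limma adjusted p = 5.14e-06) and Gpr3 by 1.02 (SE 0.21, limma adjusted p = 0.00111), where the median of all genes fell by 0.72. No member was over 10-fold lower in MII than in GV oocytes, the study's rule for this step, while 15.7% of all genes were in WT and 6.66% in null oocytes.

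The direction of these changes depended on the scaling. With the ERCC factor divided out, the WT means of GV and MII oocytes were 12.2 and 25.0 FPKM for Pde3a, 7.84 and 17.9 for Prkar2a, 109 and 57.3 for Gnas, 31.9 and 22.2 for Prkar1a, and 15.1 and 15.4 FPKM for Gpr3. Pde3a and Prkar2a thus became a larger part of the sequenced mRNA in WT MII oocytes, with log2 differences of 0.93 and 1.09 (limma adjusted p = 0.00364 and 0.000136). Gnas and Prkar1a fell on this scale too, by 0.91 and 0.50 (limma adjusted p = 0.00101 and 0.00818), but with libraries scaled to equal medians their differences were 0.03 and 0.41. In null oocytes Gnas had 132 and 255 FPKM on this scale, and 4 members rose from GV to MII (Gnas, Adcy9, Prkaca and Prkar2a) while Prkar1a fell. Of all genes on this scale, 19.7% rose and 47.6% fell in WT, and 19.5% and 40.5% in null oocytes. With equal medians 7 of 8 members rose in WT (all but Gnas), against 41.7% of all genes, while 31.8% fell. In null oocytes 7 of 8 rose with equal medians (all but Prkar1a), against 38.4% of all genes, while 27.4% fell.

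**Figure D4:**
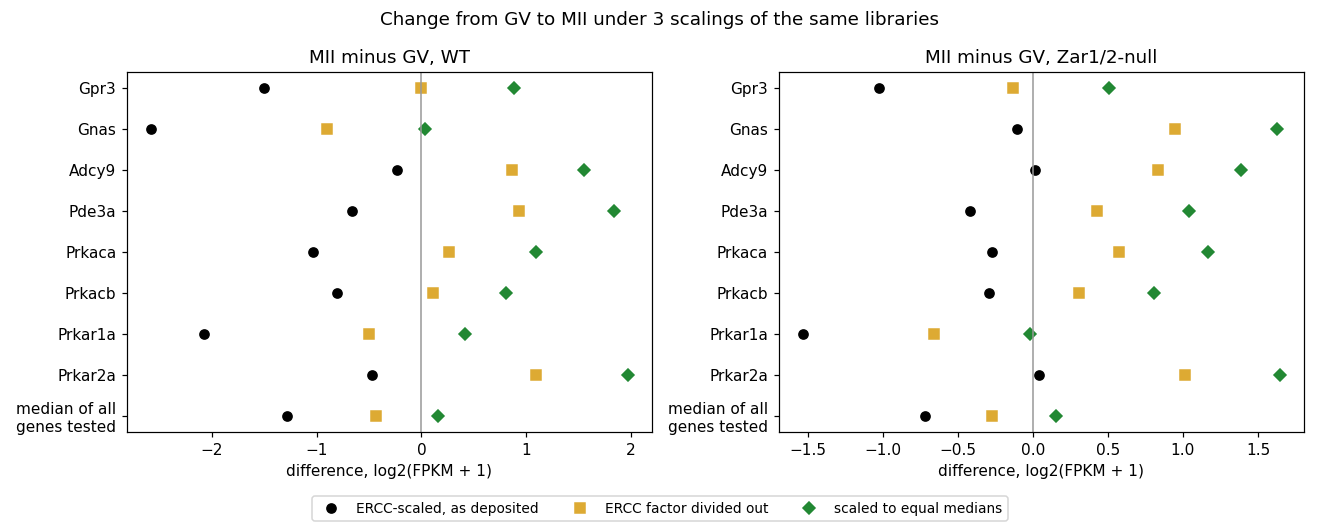
Difference between MII and GV oocytes on the log2(FPKM + 1) scale (x axis) for the 8 members tested and the median of all genes, in WT (left) and Zar1/2-null oocytes (right); circles are the deposited ERCC-scaled values, squares the values with the factor divided out and diamonds libraries scaled to equal medians. In WT, Pde3a moves from -0.67 to 0.93 and 1.83 with the scaling, and the median of all genes from -1.28 to -0.43 and 0.16.

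The genes whose levels over the 12 libraries were most like those of Gpr3 were Scmh1, Abr and Gtf3c2, with Pearson correlations of log2(FPKM + 1) of 0.996, 0.992 and 0.992 among 5835 genes with a group mean of at least 10 FPKM. Scmh1 had mean levels of 18.2 and 18.6 FPKM in WT and null growing, 11.2 and 9.33 in GV, and 4.47 and 5.01 FPKM in MII oocytes. For Pde3a they were N4bp2, Anks4b and Pptc7, with correlations of 0.993, 0.991 and 0.985. Like Pde3a, N4bp2 was lower in null oocytes at each stage, with means of 10.8 and 5.72 FPKM in WT and null growing, 9.42 and 3.29 in GV, and 5.38 and 2.07 FPKM in MII oocytes. These correlations describe 12 libraries that share their ERCC factors and stages.

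A wider list of 81 genes around the pathway held 55 that were tested. In null growing oocytes 5 of them were higher and 18 lower, in GV oocytes 2 and 27, and in MII oocytes 5 and 10. Of all genes tested, 10.6% and 24.4%, 2.83% and 40.6%, and 21.5% and 10.3% were higher and lower at these stages. Without the factor the counts of the list were 7 and 9, 5 and 8, and 6 and 15, and the shares of all genes 14.9% and 12.3%, 7.19% and 13.5%, and 24.6% and 23.4%. The median difference of the list was -0.23 in growing and -0.38 in GV oocytes and close to 0 in MII oocytes, and that of all genes -0.16, -0.38 and 0.06.

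Among the phosphodiesterases other than Pde3a, 11 of 18 were tested, of which 1 was higher and 6 were lower in null growing, 1 higher and 4 lower in GV, and 1 higher and 1 lower in MII oocytes. The 4 of 11 lower in GV oocytes stand beside 40.6% of all genes, the 6 of 11 in growing beside 24.4%, and the 1 of 11 in MII oocytes beside 10.3%. Higher calls in all genes were 10.6%, 2.83% and 21.5% in growing, GV and MII oocytes. Without the factor, 1 and 2 were higher and lower in growing, 2 and 1 in GV, and 2 and 4 in MII oocytes. Pde6d, which encodes a prenyl-binding protein named for its place in the retinal phosphodiesterase, had 290.3 and 289.6 FPKM in the WT growing and 142 and 86.7 FPKM in the null growing libraries (log2 difference -1.38, adjusted p = 0.00129 by limma with Benjamini-Hochberg adjustment). In MII oocytes it had 6.61 and 4.43 FPKM in WT and 48.5 and 37.5 FPKM in null libraries, 7.79-fold by the means (limma adjusted p = 4.17e-06). Pde6d was thus the 1 gene of this class counted as higher in MII oocytes, and it was among the 6 lower in growing oocytes. Pde1b, a calcium-dependent phosphodiesterase, had 7.47 ± 1.55 FPKM in WT and 16.8 ± 2.49 FPKM in null growing oocytes (limma adjusted p = 0.00224). Pde3b, the paralog of Pde3a, had 12.6 and 9.94 FPKM in WT growing, 8.10 and 7.27 in null growing, 12.1 and 10.8 in WT GV, 9.66 and 7.84 in null GV, 7.78 and 8.33 in WT MII, and 6.85 and 8.32 FPKM in null MII oocytes. Both null libraries were below both WT libraries in growing and GV oocytes, as for Pde3a, and the MII libraries overlapped. The growing difference of Pde3b was called (-0.49, limma adjusted p = 0.0364) but not without ERCC scaling (limma adjusted p = 0.385), and the GV difference of -0.36 was not (limma adjusted p = 0.0947). Of the other adenylyl cyclases and cyclase-associated proteins, 5 of 10 reached 1 FPKM in any library. Adcy4 was listed at 0 in all libraries, and Adcy2 had 4.02 and 3.01 FPKM in WT growing and 0.567 and 0.475 FPKM in null growing oocytes.

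Of the G proteins and their regulators, 12 of 13 were tested. Gnai1, an inhibitory alpha subunit, was lower in null oocytes at each stage, with 11.7 ± 1.51 and 6.29 ± 0.281 FPKM in WT and null growing, 11.9 ± 0.446 and 3.84 ± 0.515 in GV, and 7.10 ± 0.465 and 1.58 ± 0.117 FPKM in MII oocytes. Its log2 differences were -0.80 in growing and -1.42 in GV oocytes (adjusted p = 0.00141 and 4.31e-05 by limma with Benjamini-Hochberg adjustment). Gnb4, a beta subunit, was lower in null GV oocytes (20.2 ± 2.76 against 44.5 ± 12.7 FPKM, limma adjusted p = 0.0013), a call lost with libraries scaled to equal medians (-0.51, limma adjusted p = 0.0679). In MII oocytes the gamma subunit gene Gng12 was lower in null oocytes (18.1 ± 0.944 against 31.5 ± 1.88 FPKM, limma adjusted p = 0.00421), and Gng5 was higher (237 ± 24.0 against 165 ± 8.93 FPKM, limma adjusted p = 0.0261). The Gng5 call was lost with the ERCC factor divided out (limma adjusted p = 0.0966), with equal medians (0.445), with the 4 MII libraries alone (0.0570), and without WT MII library 1 or 2 or null MII library 1 (up to 0.157).

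Of the anchoring proteins that place PKA in the cell, 10 of 14 were tested. None was higher in null oocytes at any stage, and 4, 7 and 5 of the 10 were lower in growing, GV and MII oocytes. Lower calls in all genes were 24.4%, 40.6% and 10.3%, and higher calls 10.6%, 2.83% and 21.5%. Without the factor, none was higher and 1, 3 and 5 were lower, beside 12.3%, 13.5% and 23.4% of all genes. Akap2 had 17.3 ± 0.782 and 5.29 ± 1.09 FPKM in WT and null growing oocytes (log2 difference -1.55, adjusted p = 0.000289 by limma with Benjamini-Hochberg adjustment) and 11.7 ± 2.04 and 3.50 ± 0.283 FPKM in GV oocytes (limma adjusted p = 0.000339). Akap10 had 12.5 ± 0.146 and 4.34 ± 0.387 FPKM in WT and null GV oocytes (log2 difference -1.33, limma adjusted p = 4.24e-05). The PKA subunit gene Prkar2b was lower in null growing oocytes, with 8.51 ± 2.67 against 19.6 ± 1.41 FPKM (log2 difference -1.14, limma adjusted p = 0.000908). Of the genes of PKA inhibitors, Pkig had 25.7 to 32.9 FPKM in growing and GV and 2.96 to 4.37 FPKM in MII libraries, Pkib stayed at 1.33 FPKM or below, and Pkia at 0.127 FPKM or below.

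Genes of the cyclic GMP route that oocytes receive from granulosa cells were near 0, as Npr2 (at most 0.0767 FPKM), Gucy1a3 (at most 0.320 FPKM), Gucy1b3 (at most 0.166 FPKM) and Pde5a (at most 0.314 FPKM). Gja1, a connexin gene listed beside them, had 2.45 and 1.27 FPKM in the WT growing and 0.496 and 0.270 FPKM in the null growing libraries. In GV oocytes Gja1 had the reverse order, with 0.229 and 0.141 FPKM in WT and 1.47 and 1.33 FPKM in null libraries. Gja4, which encodes the oocyte connexin of the gap junctions, had 532 ± 73.5 FPKM in WT growing and 353 ± 14.5 FPKM in WT GV oocytes. In MII oocytes it had 6.83 and 7.95 FPKM in WT and 31.1 and 30.2 FPKM in null libraries (log2 difference 1.92, adjusted p = 1.03e-05 by limma with Benjamini-Hochberg adjustment). Among the PKA targets, Wee2, the oocyte kinase that inhibits CDK1, had 351 ± 3.38 and 243 ± 37.1 FPKM in WT and null growing oocytes, and no difference between genotypes passed the test (limma adjusted p = 0.0521 in growing oocytes). Wee1, its paralog, had 7.75 ± 0.276 FPKM in WT and 19.2 ± 1.42 FPKM in null growing oocytes (limma adjusted p = 0.000413). Cdc25b, the phosphatase that activates CDK1, was lower in null than in WT growing and GV oocytes (10.0 ± 0.435 against 15.6 ± 2.50 and 6.37 ± 0.735 against 11.1 ± 0.150 FPKM), and higher in null MII oocytes, with 4.77 and 4.33 FPKM against 0.845 and 1.14 FPKM (limma adjusted p = 1.6e-05). The calls of Cdc25b in growing and GV oocytes were lost with the ERCC factor divided out (limma adjusted p = 0.244 and 0.273), and the growing call also without WT growing library 2 or null growing library 1 (up to 0.106). The transcription factor gene Atf1, an effector of cAMP signalling, had 7.59 ± 0.118 FPKM in null and 13.5 ± 0.132 FPKM in WT MII oocytes (limma adjusted p = 0.00247).

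**Figure D5:**
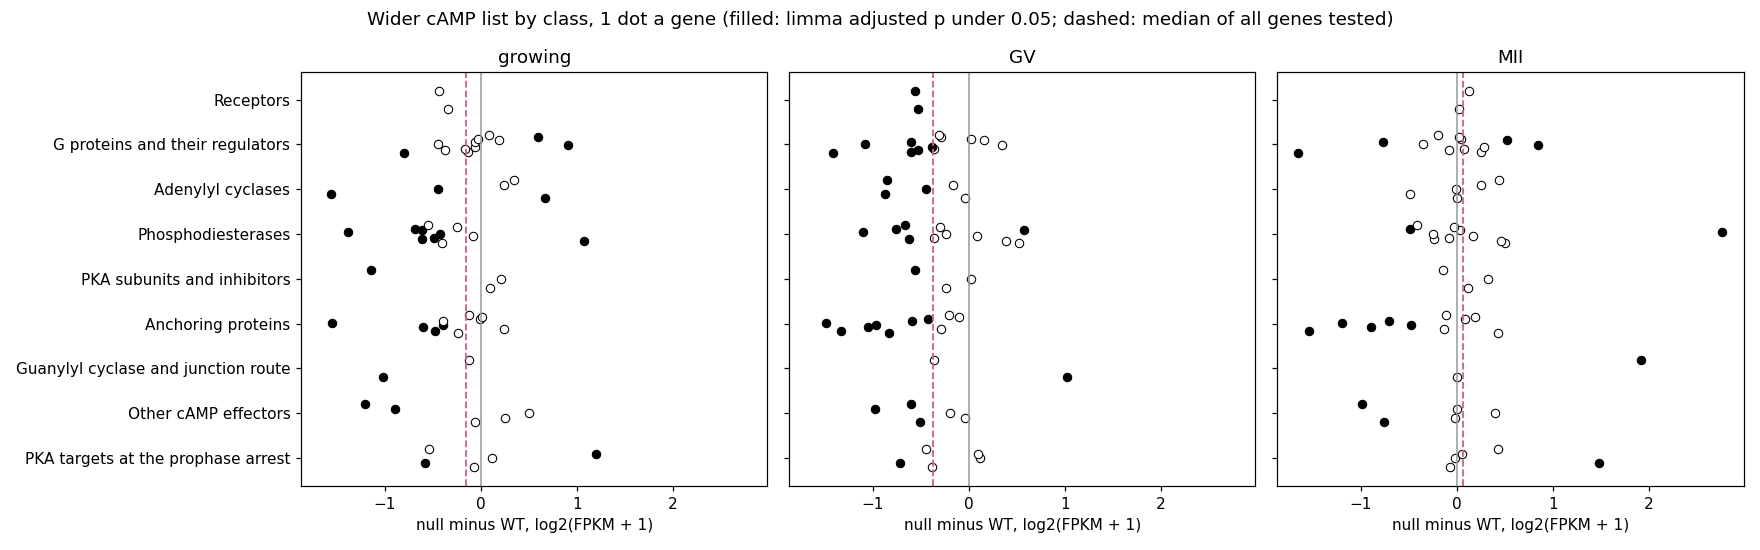
Difference between Zar1/2-null and WT oocytes on the log2(FPKM + 1) scale (x axis) for the 55 tested genes of the wider list, by class, at each stage; each dot is a gene, filled where the limma adjusted p is below 0.05, and the dashed line is the median of all genes tested. The filled dots of the anchoring proteins all lie left of 0, and Pde6d is at 2.76 in MII oocytes.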

How the data were processed

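Smart-seq2 libraries of 12 pools of oocytes were analysed. Per the labels and methods, the authors trimmed the reads and used Tophat 2.1.1 for alignment to mm9. Reads with a unique position were then quantified over UCSC genes by Cufflinks 2.2.1. They deposited FPKM values multiplied by an ERCC factor, with no read counts, so no count test was used. The factor of each library was recovered from the digits of its values, which have 6 significant digits once it is divided out.

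The test was limma 3.58.1 (R 4.3.3) on log2(FPKM + 1) values, on which scale fold changes of low genes are understated, for genes reaching 1 FPKM in any library, with 1 term per group, all 12 libraries, a trended eBayes prior and Benjamini-Hochberg adjustment at 0.05. The fit was tested on simulated data. Folds are ratios of group means set to at least 1 FPKM. The members and lists were chosen with earlier results of these data known.

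All members are named. From the wider list, up to 4 genes in each direction and genotype comparison were named, by fold among those called, not overlapping and with at least 10 FPKM. Genes that define a route were named too, and so were Pde3b, Adcy2, Adcy4 and Gja1, which were chosen after their values were seen. Alternatives were no ERCC scaling, median scaling, an averaged factor, a pseudocount or floor of 0.1 FPKM, a mean of at least 5 FPKM, no filter, a replicate block, no trend, 4 libraries alone, other means, and leaving out each library.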

Additional observations from a re-analysis of the deposited data

Results flagged for a closer look

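Among the members, 2 results were marked because the difference between genotypes itself differed between GV and MII oocytes by the interaction test. For Gnas the interaction was 2.48 on the log2 scale (SE 0.21, adjusted p = 6.26e-06 by limma with Benjamini-Hochberg adjustment). The WT level fell from 82.7 ± 4.01 to 13.0 ± 0.0833 FPKM (SD, n = 2), while the null level was 73.3 ± 7.23 and 67.9 ± 4.37 FPKM. For Prkaca the interaction was 0.76 (SE 0.20, limma adjusted p = 0.0135), with null levels below WT in GV oocytes (2.55 ± 0.157 against 4.22 ± 0.374 FPKM) and above WT in MII oocytes (1.95 ± 0.260 against 1.55 ± 0.177 FPKM). Groups of 2 libraries are too small to mark a library that stands apart.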

How the results depend on the processing

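The scaling mattered most. With the ERCC factor divided out, limma called 1 member instead of 2 for null against WT in growing and 1 instead of 4 in GV oocytes, 0 instead of 3 from growing to GV in WT and 3 instead of 7 in null oocytes, 5 (4 rises and 1 fall) instead of 2 falls from GV to MII in null oocytes, and 1 instead of 2 for the GV to MII interaction. Without the factor, 14.9% and 12.3% of all genes were higher and lower in null growing oocytes, and 7.19% and 13.5% in null GV oocytes. From growing to GV, 3.66% rose and 3.23% fell in WT, and 14.3% and 21.3% in null oocytes. From GV to MII in null oocytes 19.5% rose and 40.5% fell, and the interaction was positive in 15.1% and negative in 6.46%. With equal medians the member counts were 1 in GV oocytes, and 0 and 2 from growing to GV in WT and null oocytes. They were 7 from GV to MII in null oocytes, all of them rises, and 1 for the GV to MII interaction. From GV to MII in WT the 7 falls became 3 rises and 2 falls without the factor and 7 rises with equal medians. Of all genes in that step, 19.7% rose and 47.6% fell without the factor, and 41.7% and 31.8% with equal medians. With equal medians, 9.36% and 9.21% of all genes were higher and lower in null GV oocytes. On this scale 1.76% rose and 2.29% fell from growing to GV in WT, and 19.5% and 14.1% in null oocytes. From GV to MII in null oocytes 38.4% rose and 27.4% fell, and the interaction was positive in 13.6% and negative in 15.0%. The 4 libraries of a comparison alone gave 1 in growing, 2 in GV and 1 from growing to GV in WT oocytes. Of all 11502 genes, 829 were then higher and 2256 lower in null growing, and 214 and 2949 in null GV oocytes. From growing to GV in WT, 175 rose and 1952 fell. The averaged factor gave 1 in growing oocytes and 1 for the growing to GV interaction. Of all genes, 1240 were then higher and 3144 lower in null growing oocytes, and 341 interactions were positive and 1293 negative. A mean of at least 5 FPKM gave 1 for the GV to MII interaction, which was positive in 2706 and negative in 33 of 5966 genes. By the fold rule, equal medians gave 2 members for MII oocytes (Gnas higher and Pde3a lower) and 3 members over 3-fold higher in MII than in GV oocytes in each genotype (the rule for rises), and none over 10-fold lower. From growing to GV in null oocytes 0 passed without the factor, with equal medians or in every library, and 2 with a floor of 0.1 FPKM. The shares of all genes past the fold rule under these alternatives were not counted. Leaving out each library gave 0 to 3 members in growing (0 without WT growing library 1 or null growing library 2), 2 to 4 in GV (2 without WT GV library 1), 0 to 3 from growing to GV in WT, 0 to 1 and 1 to 3 for the interactions, and 1 to 2 by the fold rule in MII oocytes.

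Among the differences between genotypes and the stage differences called with the deposited values, these signs turned, in log2 units. With the factor divided out, null against WT was 0.26 for Gpr3, 0.23 for Prkaca and 0.12 for Prkar1a in growing, 0.0833 for Gpr3 and 0.27 for Gnas in GV, and -0.0407 for Gpr3 and -0.21 for Prkar2a in MII oocytes, and from GV to MII in WT it was 0.93 for Pde3a, 0.27 for Prkaca, 0.11 for Prkacb and 1.09 for Prkar2a. With equal medians the first set was 0.15, 0.14 and 0.0114, then 0.21 and 0.41, then -0.16 and -0.34, with -0.0342 for Prkaca and -0.0509 for Prkacb in MII oocytes. From GV to MII in WT it was 0.88 for Gpr3, 0.0301 for Gnas, 1.83 for Pde3a, 1.09 for Prkaca, 0.81 for Prkacb, 0.41 for Prkar1a and 1.97 for Prkar2a, and in null oocytes 0.51 for Gpr3. Of 27 values of members not called in the stage comparisons and interactions, 15 turned without the factor and 19 with equal medians. Those called after turning without the factor were the GV to MII differences of Adcy9 in WT (0.86) and of Gnas (0.95) and Prkaca (0.57) in null oocytes. Without 1 library, null against WT ranged from -0.26 to 0.23 for Gpr3 and -0.12 to 0.0923 for Prkaca in growing oocytes, and in MII oocytes from -0.11 to 0.41 for Gpr3, -0.0303 to 0.28 for Prkacb and -0.11 to 0.13 for Prkar2a.

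With 1 FPKM added to both terms, ratios moved in the order WT and null growing, WT and null GV, WT and null MII. Gpr12 to Gpr3 was 0.0539, 0.0475, 0.114, 0.141, 0.247 and 0.226, and Adcy3 to Pde3a 0.0939, 0.158, 0.106, 0.237, 0.163 and 0.308. Adcy9 to Adcy3 was 1.82 in WT growing, 1.92 and 2.17 in GV, and 1.72 and 2.26 in MII oocytes. Prkacb to Prkaca was 0.640 in WT growing, 0.535 in WT GV, and 0.624 and 0.589 in MII oocytes. Prkar2a to Prkar1a was 0.247 and 0.222 in growing and 0.346 in null GV oocytes, and regulatory to catalytic subunits 5.32, 4.48 and 3.21 in WT oocytes of the 3 stages. With Prkar2b added to the regulatory subunits, an alternative chosen after seeing the data, the last ratio was 8.32, 5.31, 7.19, 6.93, 7.52 and 5.34 in the 6 groups.

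The labels share replicate numbers but give no pairing, and same-numbered libraries deviated together with r = 0.163 in growing, -0.117 in GV and 0.0872 in MII oocytes. Both WT growing libraries had a factor of 1, and the part of this in these deviations was not tested. A replicate block changed no member's call and left 2, 4 and 2 members called for null against WT in growing, GV and MII oocytes. The cause of each other change was not tested, beyond the fewer libraries fitted. Depth limits Gpr12 and Adcy3 most.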
